A study of Mus musculus with 24 samples.

Results

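The genes described here encode the DNA replication machinery, the proteins that mark origins, unwind DNA, copy it, join the new strand and supply its building blocks. The 41 members were picked by gene symbol, and the array holds 18194 genes with a probe set that the platform annotation ties to that gene alone. For each member the probe set with the highest mean over all arrays stands for the gene. RNA came from C2C12 cells, an established line of mouse skeletal myoblasts that stop dividing and fuse into myotubes when serum is reduced. Affymetrix mouse arrays were hybridised at 8 time points, 3 arrays each. On Day -1 the myoblasts were at 50% confluency and on Day 0 at 90%, both in medium with 10% serum. Day 0.25 was 6 hours after the change to reduced serum, and Days 1, 2, 3, 4 and 5 followed in that medium. The reduced serum was 2% by the labels, while the study's text gives another percentage. All groups are of one cell line, the labels name no genetic change, and no arm was kept in full serum after Day 0, so reduced serum, time and culture density cannot be told apart from Day 0 on. The question asked of the members was in what order they were lost and how far they came back at 6 hours.

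Replication starts where the origin recognition complex sits on DNA, and Cdc6 and Cdt1 load the ring of MCM2-7 there. Cdc45 and the GINS complex join the ring to form the working helicase. DNA polymerase alpha with primase begins each new strand, polymerase epsilon extends the leading strand and polymerase delta the lagging strand, both held by the PCNA clamp. Many of these genes are read mainly around the G1/S step of the cell cycle, under E2F transcription factors, and differentiating muscle cells leave the cycle for good. Whole-culture RNA was measured, so fewer dividing cells and less RNA per cell cannot be told apart.

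Values are intensities on a linear scale that the authors scaled to a trimmed mean of 150 on each array. A probe set was tested if its mean reached 100 at 1 or more time points, which 13735 did. Of the members 39 passed and Orc1 and Tyms did not. Pearson's r of log2 values between arrays of one time point lay between 0.962 and 0.996, and the arrays' own trimmed means between 145 and 156. Of the 4 myoblast and 6 muscle markers, 4 and 6 reached 100, and 14 of 15 markers of adipocytes, endothelium, macrophages and neurons stayed at 7.27 or below. The exception was the neuronal tubulin Tubb3, with means of 879, 194, 1058, 327, 22.5, 9.86, 8.62 and 5.75 over the 8 time points, and its part in the members' changes was not tested. Differences below are in log2 intensity from limma's moderated t over all 24 arrays, with two-sided p-values adjusted over all probe sets tested by Benjamini and Hochberg, a threshold of 0.05 and 95% confidence intervals (CI). Percentages of Day -1 are ratios of geometric means. The labels do not say that replicates were separate cultures, so the p-values cover the spread among arrays, which may be technical only.

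Promoter sequence was taken from RefSeq (mouse build GRCm38.p6) for the 34 members with a window of 250 bases before to 50 bases after the gene's start. An E2F motif, any of TTTCCCGC, TTTCGCGC, TTTGCCGC and TTTGGCGC on either strand, lay in the windows of 13 of these 34 members (38.2%) and in those of 704 of 27025 genes in the table (2.60%). The CCAAT box, CCAAT on either strand, lay in 22 of the 34 (64.7%) and in 41.1% of all genes. On the written strand alone the E2F motif was in 6 of the 34 (17.6%) and in 372 of the 27025 genes (1.38%). Below are the 170 bases upstream of the start for 7 members, 5′ to 3′ on the gene's strand. They are Cdc6, Mcm5 and Rrm2, which rose most at 6 hours, Dut, which had the lowest difference there, and Mcm6, Gins3 and Pola1 as further carriers of the motif. Capitals mark the E2F motifs and CCAAT boxes of either strand.
Cdc6, chr11:98907981-98908150 (+): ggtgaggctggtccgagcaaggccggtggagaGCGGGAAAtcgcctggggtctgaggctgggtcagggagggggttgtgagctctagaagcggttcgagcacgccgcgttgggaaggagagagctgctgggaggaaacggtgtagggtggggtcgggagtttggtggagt
Mcm5, chr8:75109339-75109508 (+): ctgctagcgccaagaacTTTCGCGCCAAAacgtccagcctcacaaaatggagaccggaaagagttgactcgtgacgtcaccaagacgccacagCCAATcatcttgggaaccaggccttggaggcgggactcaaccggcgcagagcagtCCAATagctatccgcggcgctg
Rrm2, chr12:24708084-24708253 (+): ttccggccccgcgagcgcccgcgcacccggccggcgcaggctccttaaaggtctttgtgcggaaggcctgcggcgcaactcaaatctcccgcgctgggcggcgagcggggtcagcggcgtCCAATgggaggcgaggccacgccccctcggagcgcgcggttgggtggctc
Mcm6, chr1:128359706-128359875 (-): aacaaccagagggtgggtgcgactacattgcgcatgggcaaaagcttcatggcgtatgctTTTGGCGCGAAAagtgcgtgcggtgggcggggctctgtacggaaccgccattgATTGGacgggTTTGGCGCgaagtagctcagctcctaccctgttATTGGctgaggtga
Gins3, chr8:95633389-95633558 (+): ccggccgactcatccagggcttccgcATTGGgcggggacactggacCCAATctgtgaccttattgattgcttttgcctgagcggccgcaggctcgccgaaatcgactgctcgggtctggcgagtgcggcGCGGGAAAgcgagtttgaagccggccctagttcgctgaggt
Pola1, chrX:93632156-93632325 (-): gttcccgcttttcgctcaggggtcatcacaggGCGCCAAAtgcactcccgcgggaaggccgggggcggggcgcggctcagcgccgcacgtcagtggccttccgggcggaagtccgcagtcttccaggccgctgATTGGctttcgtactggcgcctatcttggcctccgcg
Dut, chr2:125247345-125247514 (+): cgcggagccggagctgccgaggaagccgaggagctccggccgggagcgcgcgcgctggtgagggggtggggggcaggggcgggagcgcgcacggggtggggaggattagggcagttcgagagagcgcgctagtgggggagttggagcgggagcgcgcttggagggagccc
In the Mcm5 stretch and at the first motif of Mcm6, copies of the motif on both strands overlap in one run of capitals. The stretches of Rrm2 and Dut hold no E2F motif in these letters, and that of Dut also no CCAAT box. A match is a description of the sequence and not a measured binding site.

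Over the course, all 39 tested members fell from Day -1 to Day 5, against 38.4% of all probe sets tested that were lower. Their median difference was -2.67 in log2 intensity, from -7.04 for Tk1 to -0.72 for Rnaseh2a, beside -0.08 over all probe sets. In every one of the 39 the Day 5 arrays lay below all Day -1 arrays (36.9% of probe sets). The median tested member kept 15.8% of its Day -1 level. For 16 of the 39 the Day 5 mean was under 100, so these entered the test through earlier, higher time points only, and a fall was built into their passing the filter. Gins3 reached a mean of 100 on Day -1 only, so for Gins3 this holds at every later time point. The way down was not even. From Day -1 to Day 0, before serum was reduced, 26 members fell (21.7% of probe sets were lower), with a median of -0.61, and none rose in limma (23.3% of probe sets were higher), also none at an unadjusted p under 0.05. From Day 0 to Day 0.25, 22 rose (22.4% of probe sets were higher), with a median of 0.52, and none fell in limma (20.9% of probe sets were lower), with 2 lower at an unadjusted p under 0.05. Day -1 and Day 0.25 differed by limma in 0 of 39 members, where 6.63% of probe sets were lower and 10.5% higher, and 2 members were lower at an unadjusted p under 0.05. With 1 replicate number left out at all time points, 11 fell to Day 0 without replicate 3, and 8 rose at 6 hours without replicate 1 or without replicate 3.

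From Day 0.25 to Day 1, 19 members fell (15.4% of probe sets). This count was 11 without Day 0.25 replicate 1, 12 without Day 0.25 replicate 3 and 10 without Day 1 replicate 3, and with a replicate number left out at all time points it was 8 without replicate 1 and 1 without replicate 3. Against Day -1, 28 of 39 members were lower on Day 1, with a median of -0.65, where 3020 of 13735 probe sets were lower. From Day 1 to Day 2, 36 fell with a median of -1.07 (21.7% of probe sets), and the 3 others were Pola1, Pold1 and Rfc1. After Day 2 the steps were smaller, with 14 members lower from Day 2 to Day 3 (2.96%), 0 in limma from Day 3 to Day 4 (0.663%, and 5 members at an unadjusted p under 0.05) and 5 from Day 4 to Day 5 (2.12%). These late counts turned on single arrays. From Day 2 to Day 3 the count was 2 without Day 2 replicate 3, 3 without Day 3 replicate 3, 7 without Day 3 replicate 1, and 9 without any one of Day 0 replicate 2, Day 0.25 replicate 1 and the second replicates of Day 1 and Day 3. From Day 3 to Day 4 it was 7 without Day 4 replicate 2. From Day 4 to Day 5 it was 12 without Day 4 replicate 1, 2 without Day 4 replicate 3, and 1 without Day 4 replicate 2 or Day 5 replicate 2. Between Day 2 and Day 5, 30 were lower (21.1%). Neighbouring steps share the arrays of the day between them.

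**Figure D1:**
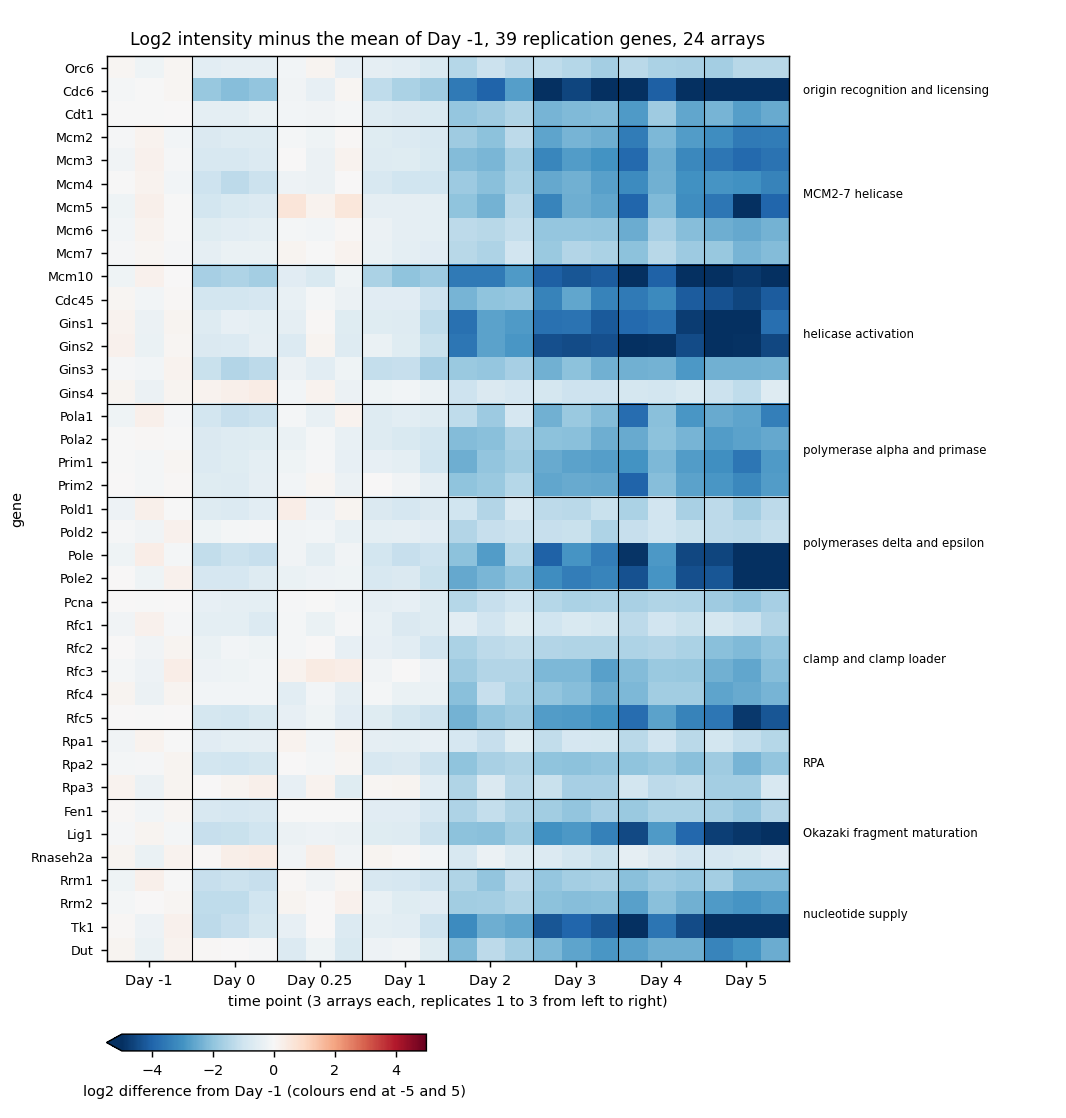
Log2 intensity on each of the 24 arrays (columns, 3 per time point) minus the gene's own Day -1 mean, for the 39 tested members (rows, by role), with blue below and red above that mean and colours ending at -5 and 5. Most rows turn blue on Day 0, pale again on Day 0.25 and blue from Day 1 on, deeper from Day 2.

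In origin recognition and licensing, all 3 tested members fell by Day 5, 2 of 3 fell from Day -1 to Day 0, and 1 of 3 rose at 6 hours. Of all probe sets, 38.4% were lower by Day 5, 21.7% lower on Day 0 and 22.4% higher at 6 hours. These shares stand beside the counts of every role group below, and 1 of 3 is not far from the last. Cdc6, the loader of the MCM ring, moved furthest. Cdc6 measured 580.1, 622 and 676 on Day -1, 167, 142 and 159 on Day 0 and 560.3, 471 and 660.3 on Day 0.25. It then measured 260.1, 207 and 182 on Day 1, 54.5, 39.3 and 91.9 on Day 2, 12, 26.0 and 19.0 on Day 3, 7.29, 36.7 and 13.5 on Day 4 and 12.3, 8.85 and 7.01 on Day 5. All Day 0 arrays lay below all of Day -1 and Day 0.25, while Day -1 and Day 0.25 overlapped. The difference was -2.0 (SE 0.41, 95% CI -2.86 to -1.15, adjusted p = 0.000575) from Day -1 to Day 0 and 1.84 (SE 0.41, 95% CI 0.99 to 2.70, adjusted p = 0.00143) from Day 0 to Day 0.25. The rise was 1.74 with an adjusted p of 0.0524 when replicate 3 was left out at all time points. Against Day -1 it stood at -0.16 (SE 0.41, 95% CI -1.02 to 0.69, adjusted p = 0.84) at 6 hours and at -6.10 (SE 0.41, 95% CI -6.95 to -5.24, adjusted p = 6.24e-11) on Day 5, when 1.46% of the first level was left.

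Orc6, a subunit of the origin recognition complex, moved least in this group. Orc6 measured 906, 730.1 and 899 on Day -1, 586, 619 and 615 on Day 0 and 763, 923 and 631 on Day 0.25. Later arrays gave 614, 576 and 494 on Day 1, 311, 403 and 339 on Day 2, 345, 311 and 260.1 on Day 3, 335, 279 and 273 on Day 4 and 259.5, 319 and 318 on Day 5. Its Day 0 arrays lay below Day -1, its Day 0.25 arrays spread from below to above Day -1, and it kept 35.4% on Day 5, a difference of -1.50 (SE 0.15, 95% CI -1.81 to -1.19, adjusted p = 1.8e-08). Cdt1, the partner of Cdc6 in loading, went from 1189.9 ± 23.4 (mean ± SD, n = 3) to 878 ± 57.6, 1081 ± 26.9 and, on Day 5, 208 ± 32.4, with a difference of -2.53 (SE 0.18, adjusted p = 1.72e-10). Orc1, the largest subunit of the complex, stayed under the level of 100 and was not tested. Its arrays gave 33.8, 40.6 and 33.6 on Day -1, 4.09, 4.54 and 2.92 on Day 0, 39.2, 19.6 and 29.8 on Day 0.25 and 2.45, 2.47 and 2.52 on Day 5. These values trace a dip on Day 0 and a return at 6 hours at a low level.

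The 6 subunits of the MCM2-7 helicase form one ring. All 6 rose at 6 hours, 4 of 6 had fallen from Day -1 to Day 0, and all fell from Day 1 to Day 2 and by Day 5. Mcm5 had the largest loss. Mcm5 measured 2050.3, 2793 and 2316 on Day -1, 1269, 1402 and 1462 on Day 0 and 3631, 2675 and 3498 on Day 0.25. From Day 1 its arrays gave 1751, 1745 and 1703 on Day 1, 582, 465 and 931 on Day 2, 243, 434 and 389 on Day 3, 151, 519 and 273 on Day 4 and 194, 72.0 and 152 on Day 5. Every Day 0 array was under every Day -1 array, yet the difference of -0.78 (SE 0.37, 95% CI -1.55 to -0.02, adjusted p = 0.0891) missed the threshold. It passed without Day 4 replicate 2, at an adjusted p of 0.0479, with only the compared time points in the fit, at 0.000641, and in a weaker Mcm5 probe set, at -1.11 and 0.0492. The rise at 6 hours was 1.24 (SE 0.37, 95% CI 0.47 to 2.00, adjusted p = 0.0111), and 2 of its 3 arrays there exceeded all Day -1 arrays, with 0.45 (SE 0.37, 95% CI -0.32 to 1.22, adjusted p = 0.449) against Day -1. By Day 5 Mcm5 was at 5.44%, a difference of -4.20 (SE 0.37, 95% CI -4.97 to -3.43, adjusted p = 3.42e-09). The rise missed the threshold with replicate 1 or replicate 3 left out at all time points, at adjusted p 0.0666 and 0.13, and in the weaker probe set, at 1.03 and 0.0691. At 6 hours the weaker probe set was not above Day -1, at -0.08 (adjusted p = 0.933), with means of 864 on Day -1 and 820 on Day 0.25. It fell further than the chosen one by Day 5, by 6.35 in log2 intensity to a mean of 11.8.

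By the chosen probe sets, Mcm7 lost the least of the 6. The other tested Mcm6 probe set lost less by Day 5, at -2.02, and the Mcm7 probe sets ran from -2.47 to -2.12. Mcm7 measured 3600.3, 4017 and 3563 on Day -1, 2754, 2983 and 2958 on Day 0 and 4037, 3696 and 4219 on Day 0.25. The later values were 2919, 2660.2 and 2535 on Day 1, 1433, 1293 and 1907 on Day 2, 1018, 1346 and 1228 on Day 3, 893, 1417 and 1054 on Day 4 and 1006, 753 and 837 on Day 5. Its Day 0 arrays all lay below Day -1 and Day 0.25, and on Day 5 it kept 23.1%, a difference of -2.12 (SE 0.16, 95% CI -2.45 to -1.79, adjusted p = 3.15e-10). The other 4 ranged from 18.2% left for Mcm6 to 7.50% for Mcm3. Mcm4, whose arrays were 1889, 2178 and 1767 on Day -1, 953, 786 and 929 on Day 0 and 1623, 1585 and 1952 on Day 0.25, had the deepest Day 0 dip of the ring at -1.13 (SE 0.17, 95% CI -1.48 to -0.77, adjusted p = 2.54e-05), and its rise at 6 hours was 0.95 (SE 0.17, 95% CI 0.60 to 1.30, adjusted p = 0.000198). On Day 4, replicate 2 was the highest array for all 6 subunits, with Mcm5 at 519 beside 151 and 273. Across the 39 tested members it was the highest Day 4 array in 32, a median of 0.36 above the day's mean in log2 intensity.

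Helicase activation had a median of 4.23% left on Day 5 over 6 members, of which 5 had a Day 5 mean under 50, and with values under 50 raised to 50 the median was 21.3%. All 6 fell by Day 5. Mcm10, which helps to start the assembled helicase, measured 278, 381 and 329 on Day -1, 104, 112 and 101 on Day 0 and 221, 190.2 and 283 on Day 0.25. After that it measured 109, 80.8 and 93.2 on Day 1, 27.8, 28.2 and 46.1 on Day 2, 19.5, 16.8 and 18.4 on Day 3, 8.41, 19.6 and 6.08 on Day 4 and 5.49, 11.4 and 5.56 on Day 5. The Day 0 arrays lay below all others up to Day 0.25, and from Day 1 on all arrays were at or below 109. The differences were -1.63 (SE 0.32, 95% CI -2.31 to -0.95, adjusted p = 0.00045) from Day -1 to Day 0, 1.12 (SE 0.32, 95% CI 0.44 to 1.79, adjusted p = 0.00973) at 6 hours and -5.54 (SE 0.32, 95% CI -6.21 to -4.86, adjusted p = 8.51e-12) by Day 5. Against Day -1 the 6-hour level was -0.52 (SE 0.32, 95% CI -1.19 to 0.16, adjusted p = 0.307), with 2 of 3 arrays below all of Day -1. With values under 50 raised to 50 this difference passed as lower, at an adjusted p of 0.00664. The rise at 6 hours missed the threshold without Day 0.25 replicate 3, at an adjusted p of 0.0518, and with replicate 1 or 3 left out at all time points, at 0.109 and 0.105.

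The 4 GINS subunits work in one complex with one copy of each, and their RNAs were left at 3.55% to 50.1% of Day -1 on Day 5. Gins4 measured 491, 361 and 491 on Day -1, 496, 532 and 575 on Day 0 and 408, 500.3 and 357 on Day 0.25. Its later values were 385, 406 and 348 on Day 1, 218, 272 and 245 on Day 2, 241, 216 and 217 on Day 3, 244, 233 and 262 on Day 4 and 212, 184 and 282 on Day 5. All Day 0 arrays of Gins4 were above all Day -1 arrays, the only such member (30.6% of probe sets), with a difference of 0.27 (SE 0.15, 95% CI -0.05 to 0.58, adjusted p = 0.157). At 6 hours its difference was -0.35 (SE 0.15, 95% CI -0.67 to -0.04, adjusted p = 0.0659) and by Day 5 -0.996 (SE 0.15, 95% CI -1.31 to -0.68, adjusted p = 7.42e-06), with 50.1% left. The 6-hour difference passed the threshold when any of 3 single arrays was left out (the second of Day -1, the second of Day 0.25, the third of Day 5), at an adjusted p between 0.019 and 0.047. Gins3 went the other way on Day 0. Its mean reached 100 on Day -1 only, at 105, so a fall from Day -1 was built into its passing the filter. Gins3 measured 101, 94.0 and 118 on Day -1, 48.2, 37.4 and 42.4 on Day 0 and 84.8, 72.8 and 89.4 on Day 0.25, with differences of -1.29 (SE 0.15, 95% CI -1.62 to -0.97, adjusted p = 1.81e-06) on Day 0 and 0.95 (SE 0.15, 95% CI 0.63 to 1.27, adjusted p = 7.91e-05) at 6 hours. Gins1 and Gins2 did not pass the test for a rise at 6 hours and had their largest falls from Day 1 to Day 2, with -2.24 (SE 0.36, adjusted p = 6.1e-05) and -2.39 (SE 0.25, adjusted p = 4.9e-07). By Day 5, 3.64% of Gins1, 3.55% of Gins2 and 19.2% of Gins3 was left, at means of 9.58, 10.5 and 19.9. With values under 50 raised to 50, their differences were -2.21, -2.55 and -1.06, beside -0.996 for Gins4, so the spread among the subunits was smaller. Cdc45, the other partner of the helicase, went from 238 ± 22.4 on Day -1 to 11.6 ± 1.76 on Day 5 (mean ± SD, n = 3).

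**Figure D2:**
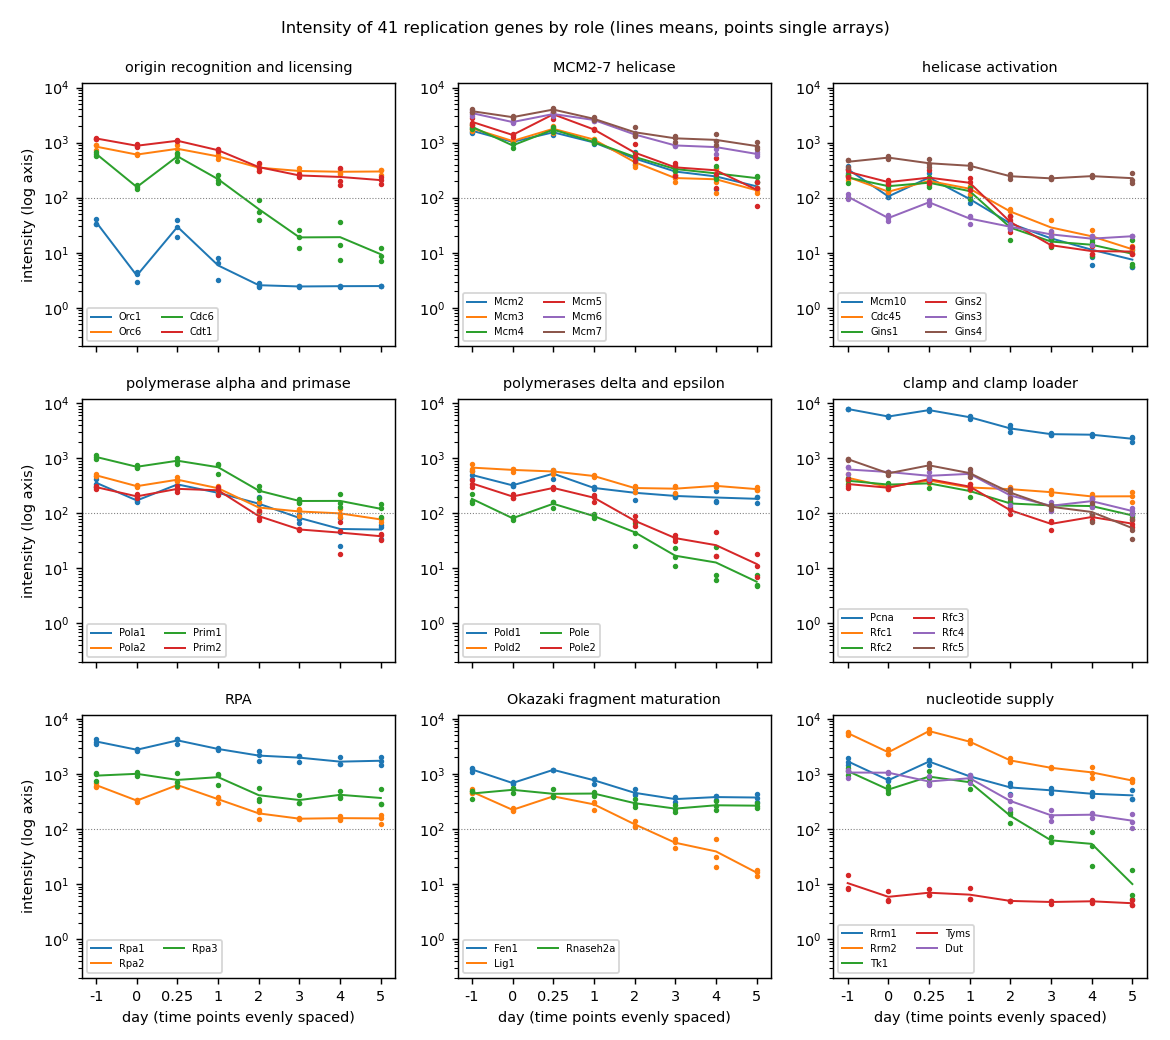
Intensity (log axis) of the 41 members over the 8 evenly spaced time points, 1 panel per role, with points for single arrays, lines for means and a dotted line at 100. Cdc6, Mcm10 and Rrm2 drop on Day 0 and return at Day 0.25, Gins4 does not drop on Day 0, and Orc1 and Tyms stay under 100 throughout.

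The chosen probe sets of polymerase alpha and primase ended close together on Day 5, though at 6 hours their differences from Day 0 ran from 0.36 to 0.96. All 4 subunits fell by Day 5, to between 11.2% and 15.8% of Day -1. From Day -1 to Day 0, 3 of 4 fell, and 2 of 4 rose at 6 hours. Prim1, the catalytic subunit of primase, measured 1052, 977 and 1142 on Day -1, 659, 693 and 749.7 on Day 0 and 899.6, 1015 and 794 on Day 0.25. It continued at 785, 751 and 528 on Day 1, 193, 267 and 315 on Day 2, 182, 164 and 157 on Day 3, 131, 221 and 152 on Day 4 and 127, 86.0 and 149 on Day 5. Its Day 0 arrays lay below those on either side. The Day 0 difference was -0.59 (SE 0.21, 95% CI -1.03 to -0.15, adjusted p = 0.0287) and that on Day 5 -3.16 (SE 0.21, 95% CI -3.61 to -2.72, adjusted p = 6.07e-11). The Day 0 call of Prim1 was lost without replicate 1 or 3 of Day -1 and without replicate 1 or 2 of Day 0, at an adjusted p between 0.0566 and 0.087.

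Pola2, the accessory subunit of polymerase alpha, measured 480.3, 514 and 477 on Day -1, 298, 314 and 323 on Day 0 and 384, 462 and 379 on Day 0.25. Afterwards it measured 309.5, 289.7 and 257 on Day 1, 108, 116 and 159 on Day 2, 118, 116 and 90.2 on Day 3, 84.6, 117 and 97.6 on Day 4 and 71.0, 77.5 and 83.8 on Day 5. The Day 0 arrays were all lower than Day -1, with a difference of -0.65 (SE 0.14, 95% CI -0.96 to -0.35, adjusted p = 0.0011), and the Day 0.25 arrays were higher than Day 0 but all below Day -1. By Day 5 the difference was -2.67 (SE 0.14, 95% CI -2.97 to -2.36, adjusted p = 2.65e-12). Pola1, the catalytic subunit, and Prim2, the large primase subunit, ended at 13.8% and 12.8%. A second Prim2 probe set fell further, by 4.75 in log2 intensity to a mean of 13.2.

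All 4 subunits of polymerases delta and epsilon fell by Day 5 and 3 of 4 fell from Day -1 to Day 0. At 6 hours 1 of 4 rose, near the 22.4% of all probe sets that were higher. Pole, the catalytic subunit of polymerase epsilon, measured 154, 227 and 169 on Day -1, 77.1, 86.5 and 81.0 on Day 0 and 161, 127 and 159 on Day 0.25. Its course went on with 96.6, 82.2 and 89.0 on Day 1, 44.0, 25.8 and 66.7 on Day 2, 11, 23.7 and 16.3 on Day 3, 6.05, 24.7 and 7.67 on Day 4 and 7.43, 4.81 and 4.96 on Day 5. It ended at 3.11%, a difference of -5.01 (SE 0.39, 95% CI -5.83 to -4.18, adjusted p = 6.96e-10), after -1.15 (SE 0.39, 95% CI -1.97 to -0.33, adjusted p = 0.0229) on Day 0. The Day 0 call was lost at an adjusted p of 0.0927 without Day -1 replicate 2, of 0.0578 without Day 0 replicate 1, of 0.0549 without Day 0 replicate 3, and of 0.0769 and 0.126 with replicate 1 or 3 left out at all time points. Pole2, its second subunit, reached 3.21% with a difference of -4.96 (SE 0.31, adjusted p = 2.52e-11).

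Pold2, the second subunit of polymerase delta, measured 649.8, 599 and 783 on Day -1, 572, 628 and 645 on Day 0 and 596, 619 and 513 on Day 0.25. The values that followed were 481, 494 and 455 on Day 1, 243, 302 and 320.1 on Day 2, 301, 309 and 231 on Day 3, 299.98, 337 and 309 on Day 4 and 268, 261 and 297 on Day 5. The arrays of the first 3 time points overlapped, and the fall came later, to 40.9% on Day 5, a difference of -1.29 (SE 0.13, 95% CI -1.55 to -1.03, adjusted p = 1.8e-08). Pold1, the catalytic subunit, was at 36.9% with -1.44 (SE 0.19, adjusted p = 1.36e-06). Its other tested probe set, lower at the start with a mean of 149, fell by 2.73 to a mean of 22.6. With values under 50 raised to 50, Pole was at -1.85 (SE 0.13) and Pole2 at -2.80 (SE 0.13), and no test between the polymerases was run.

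The PCNA clamp and its loader, replication factor C, had a median of 21.3% left on Day 5 over 6 members, all of which fell, and 3 of 6 fell to Day 0 and 3 of 6 rose at 6 hours. Pcna, the sliding clamp, went from 7865 ± 121 on Day -1 to 5738 ± 138 on Day 0, 7498 ± 342 on Day 0.25 and 2261 ± 242 on Day 5 (mean ± SD, n = 3). Its dip was -0.46 (SE 0.10, 95% CI -0.66 to -0.25, adjusted p = 0.00099), its rise at 6 hours 0.39 (SE 0.10, 95% CI 0.18 to 0.59, adjusted p = 0.00423) and its loss by Day 5 -1.80 (SE 0.10, 95% CI -2.01 to -1.60, adjusted p = 3.12e-12).

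Rfc5, a small loader subunit, measured 986, 941 and 970.3 on Day -1, 529, 506 and 564 on Day 0 and 736, 837 and 660.1 on Day 0.25. It then fell through 630.3, 530.0 and 453 on Day 1, 187, 245 and 280.4 on Day 2, 141, 134 and 120.1 on Day 3, 68.5, 153 and 96.4 on Day 4 and 78.1, 34.3 and 49.3 on Day 5. Day 0 lay below both neighbours, and 5.27% was left on Day 5, a difference of -4.24 (SE 0.25, 95% CI -4.77 to -3.72, adjusted p = 1.04e-11). Rfc1, the large subunit, lost the least of the group. Rfc1 measured 393, 511 and 424 on Day -1, 309.9, 313 and 277 on Day 0 and 415, 352 and 418 on Day 0.25. Later it measured 336, 266 and 281 on Day 1, 307, 229 and 289 on Day 2, 223, 262 and 242 on Day 3, 180.0, 228 and 201 on Day 4 and 241, 209.8 and 161 on Day 5. Between Day 1 and Day 2 its arrays overlapped, with a difference of -0.10 (SE 0.15, 95% CI -0.41 to 0.21, adjusted p = 0.598) that was 0.024 without Day 2 replicate 2, and by Day 5 it was at -1.13 (SE 0.15, 95% CI -1.44 to -0.82, adjusted p = 1.25e-06) with 45.7% left. The remaining loader subunits Rfc2, Rfc3 and Rfc4 had Day 0 arrays that overlapped Day -1, and ended at 23.4%, 19.2% and 17.7%.

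RPA coats single-stranded DNA as a trimer, and a median of 38.0% was left on Day 5 over its 3 subunits, the highest of the group medians. All 3 fell by Day 5, 2 of 3 fell to Day 0 and 2 of 3 rose at 6 hours. Rpa2 measured 591, 607 and 685 on Day -1, 336, 312 and 337 on Day 0 and 627, 588 and 672 on Day 0.25. Its next values were 363, 383 and 297 on Day 1, 154, 203 and 219 on Day 2, 154, 149.5 and 158 on Day 3, 155, 171 and 147 on Day 4 and 183, 124 and 161 on Day 5. Day 0 and Day -1 did not overlap, and Day 0.25 overlapped Day -1. The dip was -0.93 (SE 0.14, 95% CI -1.22 to -0.65, adjusted p = 2.13e-05), the rise 0.94 (SE 0.14, 95% CI 0.65 to 1.22, adjusted p = 2.68e-05) and the loss by Day 5 -2.02 (SE 0.14, 95% CI -2.31 to -1.74, adjusted p = 7.86e-11). RPA is also used in DNA repair outside S phase.

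Rpa1, the large subunit, measured 3448, 4359.8 and 3864 on Day -1, 2627, 2778 and 2853 on Day 0 and 4321, 3568 and 4329.6 on Day 0.25. The rest of its course was 2843, 2770.3 and 2914 on Day 1, 2178, 1729 and 2559 on Day 2, 1653, 2151 and 2127 on Day 3, 1504, 1992 and 1526 on Day 4 and 2044, 1718 and 1452 on Day 5. It dipped and returned, with a rise of 0.56 (SE 0.15, 95% CI 0.24 to 0.88, adjusted p = 0.00666), which missed the threshold with replicate 1 or 3 left out at all time points (adjusted p 0.0934 and 0.071), and its Day 5 difference was -1.17 (SE 0.15, 95% CI -1.49 to -0.85, adjusted p = 1.14e-06). Its fall from Day 1 to Day 2, -0.42 (SE 0.15, 95% CI -0.74 to -0.10, adjusted p = 0.0335), lost its call without any of the 3 Day 1 arrays or without Day 2 replicate 1 or 2, at adjusted p between 0.0642 and 0.162. With all its arrays kept it was also lost under quantile normalization, at 0.0888, and with only the compared time points in the fit, at 0.0634. Rpa3, the smallest subunit, did not follow. Rpa3 measured 1034, 752 and 1009.7 on Day -1, 927, 1003 and 1088 on Day 0 and 701, 1029.5 and 606 on Day 0.25. On later days it measured 977, 1009 and 641 on Day 1, 324, 552 and 358 on Day 2, 422, 292 and 294 on Day 3, 492, 373 and 389 on Day 4 and 283, 288 and 527 on Day 5. Its first 3 time points overlapped, with 0.12 (SE 0.26, 95% CI -0.42 to 0.66, adjusted p = 0.725) on Day 0 and -0.40 (SE 0.26, 95% CI -0.95 to 0.14, adjusted p = 0.212) at 6 hours. From Day 1 to Day 2 it fell, at -1.10 (SE 0.26, 95% CI -1.64 to -0.56, adjusted p = 0.00206), a call lost with replicate 1 left out at all time points (-0.86, adjusted p 0.101), and by Day 5 it stood at -1.40 (SE 0.26, 95% CI -1.94 to -0.86, adjusted p = 7.99e-05).

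Okazaki fragment maturation joins the pieces of the lagging strand, and its 3 members kept from 3.40% to 60.7% on Day 5. Lig1, the ligase that seals the pieces, measured 456, 524 and 445 on Day -1, 213, 218 and 238 on Day 0 and 391, 394 and 391 on Day 0.25. Its later arrays gave 314, 302 and 224 on Day 1, 113, 111 and 142 on Day 2, 58.6, 65.0 and 45.5 on Day 3, 20.6, 66.1 and 30.9 on Day 4 and 17.9, 16.4 and 14.2 on Day 5. Day 0 lay below all arrays of Day -1 and Day 0.25. Its Day 0 difference was -1.09 (SE 0.26, 95% CI -1.64 to -0.54, adjusted p = 0.00232) and it ended at 3.40%, a difference of -4.88 (SE 0.26, 95% CI -5.43 to -4.33, adjusted p = 2.51e-12). Rnaseh2a, the catalytic subunit of RNase H2, which removes ribonucleotides from DNA, kept the most of all 39. Rnaseh2a measured 480.3, 347 and 496 on Day -1, 450.1, 528 and 566 on Day 0 and 389.6, 528 and 389 on Day 0.25. From Day 1 it measured 474, 454 and 394 on Day 1, 252, 354 and 279 on Day 2, 273, 228 and 203 on Day 3, 322, 263 and 224 on Day 4 and 243, 259 and 295 on Day 5. Its first 3 time points overlapped, with 0.23 (SE 0.17, 95% CI -0.13 to 0.60, adjusted p = 0.282) on Day 0, and 60.7% was left on Day 5, -0.72 (SE 0.17, 95% CI -1.08 to -0.36, adjusted p = 0.00107). Fen1, the flap endonuclease, rose at 6 hours by 0.80 (SE 0.13, 95% CI 0.53 to 1.06, adjusted p = 7e-05) and stood at -1.70 (SE 0.13, 95% CI -1.97 to -1.44, adjusted p = 3.52e-10) on Day 5, and its other tested probe set fell further, by 3.07.

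In nucleotide supply, the enzymes that make DNA precursors, all 4 tested members fell by Day 5. From Day -1 to Day 0, 3 of 4 fell, and 2 of 4, both subunits of ribonucleotide reductase, rose at 6 hours. Rrm2, the small subunit, measured 5196, 5551 and 5837 on Day -1, 2321, 2313 and 2791 on Day 0 and 6081, 5539 and 6423 on Day 0.25. Thereafter its arrays gave 4219, 3632 and 3725 on Day 1, 1658, 1693 and 1932 on Day 2, 1320.2, 1264 and 1294 on Day 3, 836, 1311 and 1058 on Day 4 and 771, 709 and 796 on Day 5. Day 0 stood apart from both neighbours, and Day -1 and Day 0.25 overlapped. The dip was -1.16 (SE 0.13, 95% CI -1.43 to -0.90, adjusted p = 4.9e-07) and the rise 1.28 (SE 0.13, 95% CI 1.02 to 1.55, adjusted p = 1.96e-07), which left 0.12 (SE 0.13, 95% CI -0.14 to 0.38, adjusted p = 0.573) against Day -1. By Day 5 the difference was -2.87 (SE 0.13, 95% CI -3.13 to -2.60, adjusted p = 1.15e-13).

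Rrm1, the large subunit, measured 1436, 1987 and 1667 on Day -1, 747, 798 and 766 on Day 0 and 1761, 1484 and 1793 on Day 0.25. Its remaining values were 968, 937 and 811 on Day 1, 593, 433 and 679 on Day 2, 444, 518 and 551 on Day 3, 394, 476 and 440.3 on Day 4 and 512, 358 and 355 on Day 5. It followed Rrm2 into the dip, -1.13 (SE 0.16, 95% CI -1.47 to -0.79, adjusted p = 1.71e-05), and out of it, 1.12 (SE 0.16, 95% CI 0.78 to 1.46, adjusted p = 2.42e-05), and kept 23.9% on Day 5, -2.06 (SE 0.16, 95% CI -2.41 to -1.72, adjusted p = 7.58e-10). Tk1, the thymidine kinase of dividing cells, measured 1153, 941 and 1299 on Day -1, 453, 505 and 604 on Day 0 and 836, 1149.8 and 699 on Day 0.25. It went on with 799, 780.3 and 543 on Day 1, 127, 207 and 185 on Day 2, 57.5, 72.2 and 57.1 on Day 3, 21.7, 89.3 and 50.2 on Day 4 and 6.31, 5.36 and 18.3 on Day 5. Tk1 lost more than any other member, -7.04 (SE 0.42, 95% CI -7.91 to -6.17, adjusted p = 9.51e-12), and 0.761% was left. Its Day 0 difference was -1.12 (SE 0.42, 95% CI -1.99 to -0.25, adjusted p = 0.0348), a call lost without either replicate 1 or 3 of Day -1 or replicate 1 or 2 of Day 0, at adjusted p between 0.0711 and 0.0991. The fall from Day 4 to Day 5 was -2.43 (SE 0.42, 95% CI -3.30 to -1.56, adjusted p = 0.00315), with 2 of 3 Day 4 arrays and all Day 5 arrays under 60, and with values under 50 raised to 50 it was -0.28 with an adjusted p of 0.576. This call was lost with replicate 2 or 3 left out at all time points, at 0.226 and 0.0536, and the Day 0 call with any replicate number left out, at 0.0546 to 0.13.

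Dut, the dUTPase that keeps uracil out of DNA, had the most negative difference of all members from Day 0 to Day 0.25. Dut measured 1149, 839 and 1199.8 on Day -1, 1088, 1052 and 1022 on Day 0 and 656, 908 and 624 on Day 0.25. Later values were 887, 939 and 684 on Day 1, 229, 419 and 321 on Day 2, 223, 169.5 and 140.2 on Day 3, 161, 191 and 194 on Day 4 and 106, 132 and 186 on Day 5. Day 0 lay within the range of Day -1, with 0.01 (SE 0.23, 95% CI -0.47 to 0.48, adjusted p = 0.986). All Day 0.25 arrays lay below all Day 0 arrays, the only member with this order (26.1% of probe sets), at -0.55 (SE 0.23, 95% CI -1.03 to -0.07, adjusted p = 0.0576). That difference passed the threshold without Day 0.25 replicate 2, at -0.72 with an adjusted p of 0.0229, and at an adjusted p between 0.04 and 0.0481 without replicate 1 or 2 of Day 2 or replicate 1 or 3 of Day 5. Dut fell from Day 1 to Day 2, at -1.40 (SE 0.23, 95% CI -1.88 to -0.93, adjusted p = 7.58e-05), and stood at -2.93 (SE 0.23, 95% CI -3.41 to -2.45, adjusted p = 6.16e-10) on Day 5. Tyms, the thymidylate synthase, did not exceed 14.6 on any array and was not tested, and a further probe set that it shares with a pseudogene was not used.

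The dip and the return at 6 hours were set side by side over the members. In 31 of 39 all Day 0 arrays lay below all Day -1 arrays (29.5% of probe sets tested), and in 30 of 39 all Day 0.25 arrays lay above all Day 0 arrays (29.6%). The 6 muscle markers also moved over these time points. Their summed intensity was between 922 and 1267 over the Day -1 arrays, between 10143 and 11427 on Day 0 and between 8067 and 10211 on Day 0.25. All 6 rose to Day 0, and 3 of 6 fell at 6 hours. Myogenin (Myog), a muscle transcription factor, had means of 404, 2621 and 2428, and the troponin Tnnt3 had 38.6, 934 and 438. Their part in the members' dip and return was not tested. The median member stood at 65.3% of Day -1 on Day 0 and at 89.4% on Day 0.25. At 6 hours the median of each role group lay between 79.1% for helicase activation and 100.2% for RPA, and members ranged from 68.5% for Dut to 136.8% for Mcm5. The other tested Mcm5 probe set stood at -0.08 in log2 intensity against Day -1 there. In 5 of 39 members all Day 0.25 arrays were below all Day -1 arrays, near the 13.5% of probe sets. The comparisons of Day -1 with Day 0 and of Day 0 with Day 0.25 share the Day 0 arrays.

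**Figure D3:**
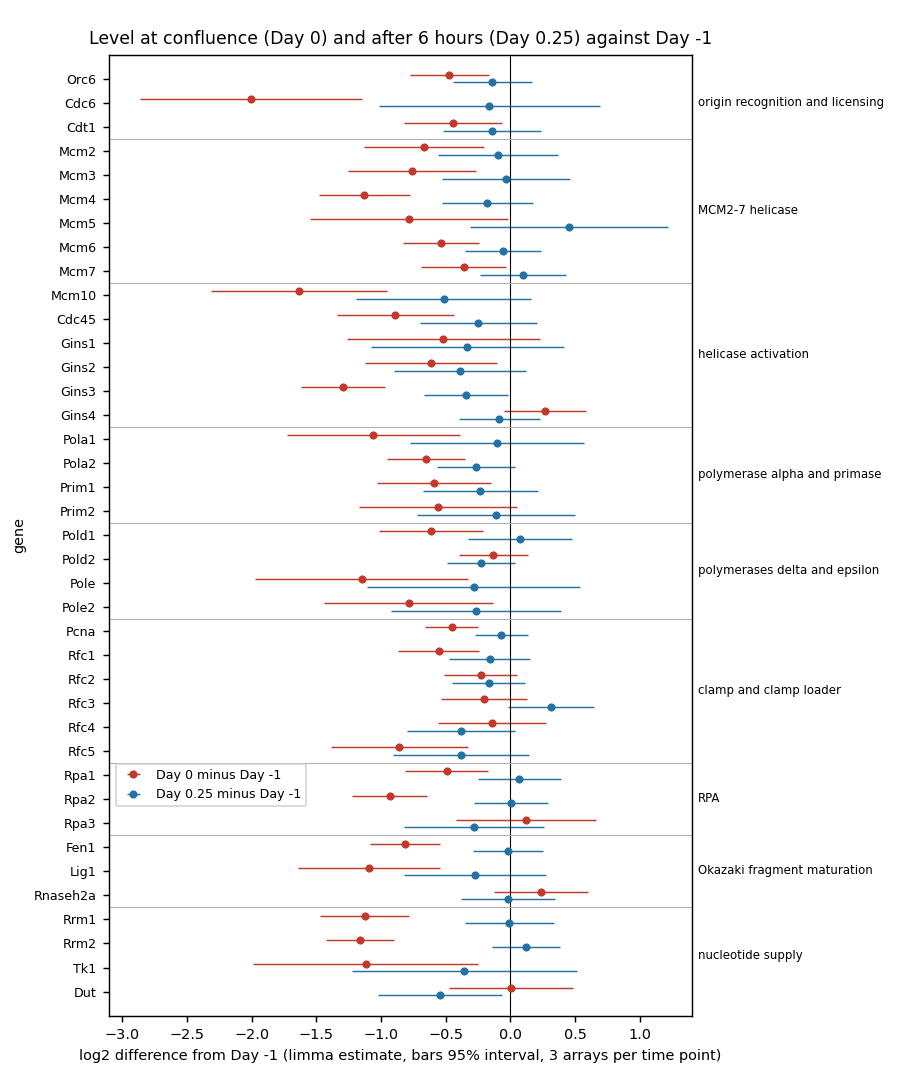
Log2 difference from Day -1 (x axis) on Day 0 (red) and on Day 0.25 (blue) for the 39 tested members (y axis, by role), with 95% confidence intervals from 3 arrays per time point. Cdc6 lies at -2.0 on Day 0 and at -0.16 on Day 0.25. Gins4, Rnaseh2a and Rpa3 lie above 0 on Day 0, and Dut lies at 0.01.

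The 8 members without an array-by-array dip on Day 0 were Rfc2, Rfc3, Rfc4, Pold2, Gins4, Rpa3, Rnaseh2a and Dut. Day -1 replicate 2 was the lowest Day -1 array in 8 of these 8 and in 13 of the other 31, so that array enters this division. Without it, all Day 0 arrays of Rfc2, Rfc3, Rfc4, Pold2 and Dut lay below the other Day -1 arrays. Those of Gins4, Rpa3 and Rnaseh2a still did not, so the division depends on that array. In limma none of the 8 was called lower on Day 0 without it, with differences from -0.33 for Rfc3 to 0.12 for Gins4. The count of all members that fell was then 19 in place of 26. The part of Day -1 replicate 2 in the division was not tested further. At 6 hours, replicate 2 was the highest Day 0.25 array for 19 members and the lowest for 19. Of the promoter windows, 1 of 6 among the 8 members held an E2F motif and 11 of 26 among those with the dip. These counts use the division made with all arrays and share its dependence on Day -1 replicate 2.

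The order of loss was read from the first time point at which a member was lower than on Day -1 by at least 1 in log2 intensity, with an adjusted p under 0.05, there and at every later time point. By this rule 4 members were lost from Day 1, namely Cdc6, Mcm10, Gins3 and Pole, where 2.41% of all probe sets tested were lost by then. For Gins3, which passed the level filter through Day -1 only, a fall from that day was built in. Mcm10 and Pole also had Day 1 means under 100, at 94.3 and 89.2, so they passed through earlier, higher time points only. Pole met the rule narrowly, at -1.02 with an adjusted p of 0.0437 on Day 1. On Day 2 a further 31 followed, so that 35 of 39 were lost by Day 2 against 8.56% of probe sets. Cdc6, Mcm10, Cdc45, Gins1, Gins2, Gins3, Prim2, Pole and Pole2 had Day 2 means under 100. These passed the filter through earlier, higher time points only, so a fall was built in for them. Rfc1 and Rpa1 were lost from Day 4 (13.3% of probe sets by then), and Gins4 and Rnaseh2a did not meet the rule by Day 5 (16.1%). Some of these places were decided narrowly. Rpa1 was at -0.98 on Day 3, and Gins4 at -0.996 on Day 5, just short of the cutoff. All 6 MCM subunits, all 4 of polymerase alpha and primase and all 4 of nucleotide supply had Day 2. For 25 members the largest single fall was from Day 1 to Day 2, for 10 from Day -1 to Day 0, for 2 from Day 0.25 to Day 1, for Pole from Day 2 to Day 3 and for Tk1 from Day 4 to Day 5. A median of 63.8% of the log2 loss by Day 5 was reached on Day 2, from 38.7% to 95.5% among members.

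**Figure D4:**
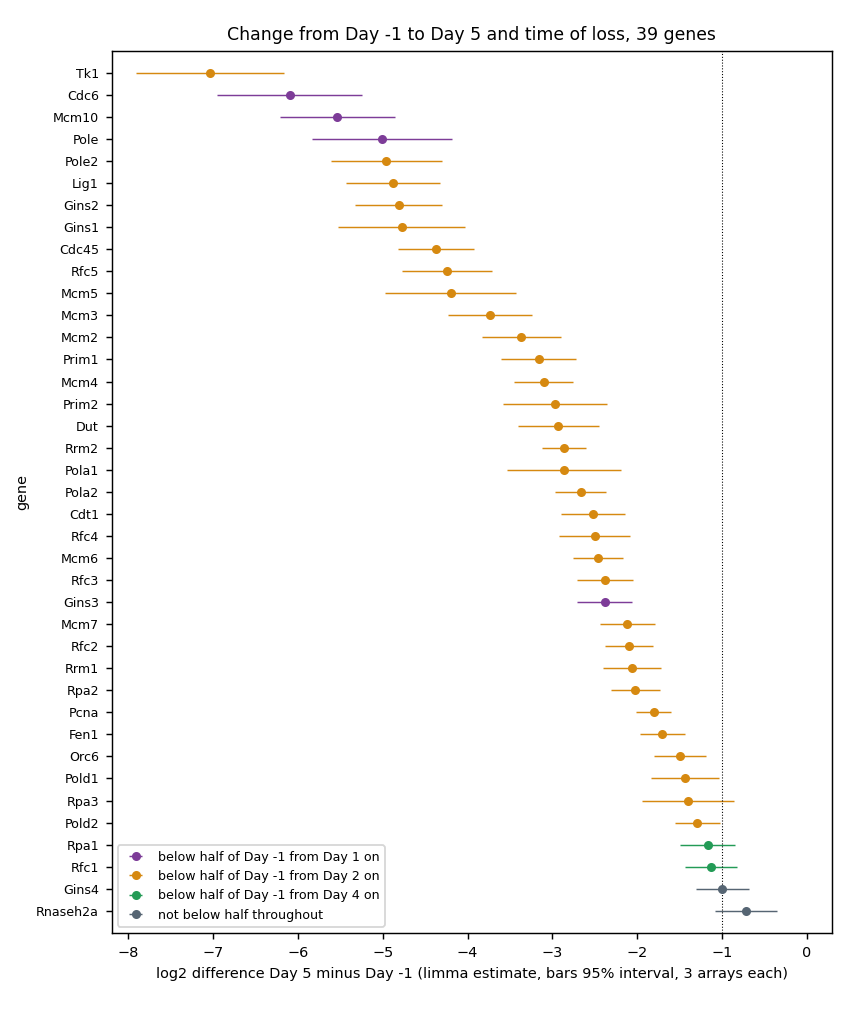
Log2 difference of Day 5 from Day -1 (x axis) with 95% confidence intervals for the 39 tested members (y axis, in order of size), coloured by the day of loss, with a dotted line at -1. All intervals lie below 0, from Tk1 at -7.04 to Rnaseh2a at -0.72.

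The level left was also set out by role. On Day 5 the median level left, as deposited, was 4.23% for helicase activation, 10.7% for MCM2-7, 13.3% for polymerase alpha and primase, 13.4% for nucleotide supply, 17.4% for licensing, 20.1% for polymerases delta and epsilon, 21.3% for the clamp and its loader, 30.7% for Okazaki fragment maturation and 38.0% for RPA. Ranges within groups overlapped and no test between groups was run, since the members of a group are not replicates. For example, helicase activation ran from 2.15% for Mcm10 to 50.1% for Gins4. Day 5 means were under 50 for 11 members, near the lower end of the scale. With values under 50 raised to 50, the median difference was -2.46, from -4.49 to -0.72. The order of the groups then changed, since helicase activation moved to 21.3%, above the 10.7% of MCM2-7 and the 15.8% of polymerase alpha and primase, and polymerases delta and epsilon moved to 32.3%. Differences of single members shrank as well, to -4.49 for Tk1, -3.64 for Cdc6, -3.24 for Lig1 and -2.71 for Mcm10. Among the 19 members with several tested probe sets, none had calls of opposite direction in any of the 18 comparisons fitted. From Day -1 to Day 5 the tested probe sets of a member spread by at least 1 in log2 intensity for 5 members, Mcm3, Mcm5, Prim2, Fen1 and Pold1. Mcm3 spread most, from -5.28 to -3.06 over 4 probe sets around -3.74 for the chosen one, and Rrm2 and Cdt1 followed these 5 with spreads of 0.969 and 0.959. The chosen probe sets of Mcm5, Pold1 and Fen1 end in _x_at, and those of no other member do. They gave -4.20, -1.44 and -1.70, where the other tested set of each gave -6.35, -2.73 and -3.07. The 30.7% of Okazaki fragment maturation is the value of Fen1, so the order of the groups also depends on the choice of probe set.

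Other replication genes outside the 41 were counted from a list of 49, of which 39 were tested. From Day -1 to Day 5, 34 fell, 2 rose and 3 passed in neither direction, with a median of -1.74. Of all probe sets tested 38.4% were lower then and 4375 of 13735 higher. From Day -1 to Day 0, 23 fell (21.7% of probe sets) and 2 rose (23.3%), and at 6 hours 17 rose (22.4%) and 2 fell (20.9%). Asf1b, a histone chaperone, fell from 617 ± 81.5 to 14.3 ± 2.55 (mean ± SD, n = 3), a log2 difference of -5.44 with an adjusted p of 1.01e-13. Chaf1b, a subunit of the chromatin assembly factor, fell from 126 ± 10.3 to 6.37 ± 0.143, a difference of -4.30 with an adjusted p of 5.07e-13. The risers were Top1, the topoisomerase that relaxes DNA also in transcription, from 1018 ± 37.7 to 1639 ± 87.0 (0.69, adjusted p = 1.79e-07), and Rrm2b, the ribonucleotide reductase subunit used outside S phase, from 185 ± 12 to 383 ± 53.7 (1.04, adjusted p = 5.38e-07). Rrm2 itself went down over the same days. Orc3 and Orc4, further origin recognition subunits, and Samhd1 did not pass. Orc3 had 166 ± 7.93 on Day -1 and 171 ± 15.3 on Day 5, and Orc4 699 ± 52.4 and 684 ± 28.6, where Orc6 was at 35.4% of its start.

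Mitosis genes, which act after replication in the cycle, give a second view of the same cultures. Of 29 tested, 29 fell from Day -1 to Day 5 (38.4% of probe sets) with a median of -4.97. From Day -1 to Day 0, 23 fell (21.7%) with a median of -1.06, and 11 rose at 6 hours (22.4%) with a median of 0.80. The members' medians in the same comparisons were -2.67, -0.61 and 0.52. The lists were not tested against each other.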

How the data were processed

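RNA from C2C12 cells was hybridised to 24 Affymetrix mouse arrays, 3 per time point, and groups and replicate numbers came from the sample titles. The authors deposited one intensity per probe set and array, made with GC-RMA, put back on a linear scale to base 2, with the 2% trimmed mean of each array set to 150. MAS5 is also named in the submitters' processing notes, with no role given. GC-RMA draws dim probe sets toward a common low value, so changes that end near the bottom of the scale are less certain in size. The number of arrays, 3 per time point, limits the precision.

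Intensities were log2-transformed. Control probe sets were left out, and a mean of at least 100 at 1 or more time points was required. The platform annotation tied probe sets to genes, and a probe set of more than 1 gene named no member. One fit with a mean per time point was made over all 24 arrays in limma 3.58.1 (R 4.3.3), with the moderated t for each contrast and adjustment by Benjamini and Hochberg over 13735 probe sets. Permuting 3 arrays against 3 exactly allows no p below 0.10, so limma was used for single genes. The fit was tested on simulated data.

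The value on every array was printed for the members with the largest and the smallest change from Day -1 to Day 5 in each role group, and for the 3 highest and the 3 lowest differences from Day 0 to Day 0.25. Of the other replication genes, up to 2 per direction with the lowest adjusted p from Day -1 to Day 5 were named. Orc3, Orc4, Samhd1, Mcm4, Gins3 and the second probe sets were picked after their values were seen. Members, roles and lists were chosen with earlier results of these data known. Alternatives were another probe set per gene, other level filters, quantile normalization, values under 50 raised to 50, an intensity trend, only the compared time points, the replicate number as a block, other thresholds of loss, and leaving out replicates or arrays.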

Additional observations from a re-analysis of the deposited data

How the results depend on the processing

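The 12 counts of members that fell, rose or were lost were recomputed under each alternative. With values under 50 raised to 50, 2 members were lower on Day 0.25 than on Day -1, and 3 fell from Day 4 to Day 5. Without a level filter, Day 3 was lower than Day 2 in 5 members and Day 5 lower than Day 4 in 2. With only the compared time points in the fit, where fewer probe sets pass the filter and fewer arrays set the spread, Day 3 was lower than Day 2 in 3 members, Day 5 lower than Day 4 in 0 (none of the 25 still tested) and Day 5 lower than Day 2 in 19. With a loss of at least 2 in log2 intensity, 11 were lost by Day 2.

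Leaving out a replicate number or one array, the Day 0 dip held for 11 to 28 members and the rise at 6 hours for 8 to 24. Members lower than on Day -1 numbered 0 to 2 at Day 0.25, 37 to 39 on Day 2 and 38 to 39 on Day 5, and 33 to 35 were lost by Day 2. Members lower than at the preceding time point numbered 1 to 23 on Day 1, 27 to 37 on Day 2, 0 to 19 on Day 3, 0 to 7 on Day 4 and 0 to 12 on Day 5, and 23 to 32 were lower on Day 5 than on Day 2. The lowest counts for the dip (11) and for Day 1 (1) came without replicate 3. Under the remaining alternatives that kept all arrays, each count stayed within 1.5 times of the reported one.

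Over 84 differences of named members and 36 settings, 2945 values kept their direction and side of the threshold, 43 lost the call, 16 gained it and 7 turned direction. The 7 were Rpa3 from Day -1 to Day 0 at -0.025 without replicate 2 and at -0.026 without Day -1 replicate 2 (range when leaving out arrays -0.026 to 0.26), Dut from Day -1 to Day 0 at -0.019 with quantile normalization, -0.16 without replicate 2, -0.16 without Day -1 replicate 2 and -0.018 without Day 0 replicate 1 (range -0.16 to 0.12), and Rfc1 from Day 1 to Day 2 at 0.024 without Day 2 replicate 2 (range -0.19 to 0.024). None of these was called in either direction, and the cause was not tested. The E2F motif was in 6 of 34 members on the written strand alone, against 1.38% of all genes.

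Replicate numbers are shared between time points, but nothing ties the arrays of one number. Deviations of same-numbered arrays from their time point means correlated between -0.51 and 0.55, and in 9 of 21 cases the nearest array at the next time point had the same number. With the replicate block, 24 members fell from Day -1 to Day 0, 21 rose at 6 hours, 36 fell from Day 1 to Day 2 and 35 were lost by Day 2. The 11 members with a Day 5 mean under 50 are limited most by low signal.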
